A study of Mus musculus with 4 samples.

Results

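Of 49394 open-chromatin peaks called in Gata2WT fetal ovary cells enriched for germ cells, 11313 had no counterpart in the Gata2cKO list and lay away from the ends of protein-coding genes. These regions are called members here. They were found by ATAC-seq, an assay that reads out which stretches of DNA a transposase can reach in the nucleus. A member is an interval of the Gata2WT peak list on an autosome or X that shares no base with any interval of the Gata2cKO list. It also lies more than 1 kb, and at most 100 kb, from the closest end of any protein-coding gene, its first or its last annotated base. The 14060 Gata2WT peaks without a Gata2cKO counterpart thus split into 11313 members, 1034 peaks at gene ends and 1713 peaks farther than 100 kb from any gene end. Presence or absence in the lists chose the members, so their number and strength are a description and not a finding.

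The Gata2cKO samples came from C57BL/6J embryos in which Prdm1-Cre, active in the germ cell lineage, deletes a floxed Gata2, and the Gata2WT samples from embryos of the same crosses. These mated Gata2flox/+ Prdm1-Cre males with Gata2flox/flox females, so both genotypes carry at least 1 floxed allele; which offspring counted as Gata2WT is not spelled out in the labels. All samples were female, collected at E14.5 (embryonic age in days), with 2 samples per genotype and about 10000 cells per library. The cells were trypsin-digested ovary cells enriched for germ cells with beads against SSEA1, a surface sugar of early germ cells, and the labels call them ovarian cells.

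Each genotype is represented by 1 combined peak list, so there is no replicate error, no test between genotypes and no p-value. The intervals given are 95% Wilson intervals, which cover counting error only. A site missing from the Gata2cKO list fell below the authors' threshold there; that does not show it was closed. The Gata2cKO list was the shorter one, with 44139 peaks covering 28.3 Mb against 49394 peaks covering 32.2 Mb in Gata2WT. Its genome background, the lowest local pileup behind any of its peaks, was 2.01 fragments against 2.19 in Gata2WT. Germ cell genes were open in both lists: 24 of 29 had a peak within 1 kb of a gene end in each. Genes that mark other ovarian cells also had such peaks in both lists, at 15 of 20 supporting cell genes, 10 of 15 endothelial genes, 9 of 15 stromal genes and 5 of 15 blood and macrophage genes. Among housekeeping genes it was 27 of 30. The share over all genes was not counted, so these counts do not tell which cells made up the pools.

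Open sites away from promoters are often enhancers, short regions where transcription factors bind and raise the activity of a gene that may lie far away. GATA2 is a zinc finger factor that binds DNA at GATA words, mostly at such distal sites in blood cells. In the fetal ovary, female germ cells at this age are leaving a pluripotency-like state and entering meiosis, under signals such as retinoic acid and BMP from the somatic cells around them.

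Sequence could be read only where a member lay over a start window of the RefSeq table (GRCm38.p6), which runs from 250 bases before to 50 bases after a gene's start. The first sequence below is shown because it lies under the strongest member of all. The next lie under strong members at starts of genes with a role in BMP signalling and in oocytes. The last is shown because its window holds GATA words, though outside the part that its member covers. Capitals mark AGATAA or TGATAA, or their reverse complements TTATCT and TTATCA; every sequence reads along its gene's strand.
Gm26611: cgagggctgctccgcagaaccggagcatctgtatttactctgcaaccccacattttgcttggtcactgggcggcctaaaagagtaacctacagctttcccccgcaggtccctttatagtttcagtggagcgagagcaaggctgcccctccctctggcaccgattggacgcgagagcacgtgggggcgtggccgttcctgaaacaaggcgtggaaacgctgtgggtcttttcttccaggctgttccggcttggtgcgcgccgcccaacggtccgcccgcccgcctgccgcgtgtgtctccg
Bmpr1b: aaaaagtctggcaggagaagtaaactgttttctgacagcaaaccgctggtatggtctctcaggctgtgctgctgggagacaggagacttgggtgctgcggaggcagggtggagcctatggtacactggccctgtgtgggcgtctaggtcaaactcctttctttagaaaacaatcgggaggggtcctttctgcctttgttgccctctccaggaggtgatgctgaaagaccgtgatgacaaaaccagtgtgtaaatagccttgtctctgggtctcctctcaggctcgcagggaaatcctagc
Wee2: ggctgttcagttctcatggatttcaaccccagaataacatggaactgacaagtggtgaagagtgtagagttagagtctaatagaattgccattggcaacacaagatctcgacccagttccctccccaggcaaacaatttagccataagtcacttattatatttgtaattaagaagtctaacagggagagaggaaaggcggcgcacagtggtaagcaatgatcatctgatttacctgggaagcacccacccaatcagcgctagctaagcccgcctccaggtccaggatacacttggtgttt
E230029C05Rik: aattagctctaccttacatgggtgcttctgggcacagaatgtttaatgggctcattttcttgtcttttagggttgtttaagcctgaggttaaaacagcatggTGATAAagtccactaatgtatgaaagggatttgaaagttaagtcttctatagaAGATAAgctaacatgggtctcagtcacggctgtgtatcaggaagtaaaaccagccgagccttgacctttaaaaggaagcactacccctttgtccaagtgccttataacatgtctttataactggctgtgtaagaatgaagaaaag

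The first of these windows, of the long noncoding RNA gene Gm26611, lies on the plus strand at chr9:88858718-88859017. Its GC content was 62% with 25 CpG pairs. The member over it, at chr9:88858868-88859135, had the highest −log10 q of all members, 29.9, with a fold enrichment of 11.9 and 37 fragments at its summit on a local background of 2.19. The start window of a second noncoding gene, 9330159M07Rik, lies under the same member on the minus strand. The summit lay 29 bases from the Gm26611 start, and the nearest Gata2cKO peak was 310 kb away. This region was 10.7 kb from the nearest coding gene end, that of Trim43c.

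Bmpr1b encodes a type I BMP receptor, and a member covered an internal start of the gene. Its window, on the minus strand at chr3:141931539-141931838, had a GC content of 53% and no GATA word. The member at chr3:141931486-141931783 had a −log10 q of 14.0, a fold enrichment of 7.53 and 23 fragments, with its summit 45 bases from that start and 94.4 kb from the nearest outer end of the gene. The closest Gata2cKO peak was 49.9 kb away. Wee2 encodes an oocyte kinase that holds meiotic arrest. The window of an internal start of this gene, on the plus strand at chr6:40442613-40442912, lay under a member at chr6:40442553-40443392 with a −log10 q of 9.57 and 19 fragments, whose summit was 28 bases from the start. The nearest Gata2cKO peak was 6.04 kb from it, and the nearest gene end that of Dennd11, 6.42 kb away.

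The window of the noncoding gene E230029C05Rik, on the plus strand at chr7:90028909-90029208, held 2 GATA words at a GC content of 40%. Its member, at chr7:90029095-90029565, had a −log10 q of 6.19 and 16 fragments. Both words lie before the first base of this member, so it covered neither of them. Eed, of the Polycomb complex, was the coding gene with the nearest end, 48.1 kb away. Other strong members over internal starts of coding genes were those at Pogz, a zinc finger chromatin protein gene (−log10 q of 11.6), and Dnajb4, a heat shock cochaperone gene (10.6), with summits 81 and 9 bases from the start.

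Annotated starts were rare under members. On the chromosomes that the start table covers, 230 of 10969 members (2.10%, 1.84 to 2.38) lay over a start window. The share was 2.11% (1.79 to 2.47) among 6928 cKO-only peaks chosen by the mirrored rule, and 9.35% (8.94 to 9.77) among 19084 shared Gata2WT peaks away from gene ends. Part of this went with strength. For a −log10 q under 2 the shares were 1.43% of members and 1.67% of shared peaks, with overlapping intervals. From 2 to 5 they were 2.33% (1.98 to 2.75) and 3.35% (2.89 to 3.87), from 5 to 10 they were 2.55% (1.86 to 3.48) and 4.74% (4.21 to 5.33), and at 10 and over 2.82% (1.21 to 6.44) and 18.8% (17.9 to 19.8). Members and cKO-only peaks had overlapping intervals in every bin. Internal starts of coding genes lay under 0.666% of members, 0.635% of cKO-only peaks and 6.15% of shared peaks. Within 1 kb of an end of a gene that is not protein-coding lay 7.38% of members (6.90 to 7.88), 6.83% of cKO-only peaks (6.26 to 7.45) and 11.8% of shared peaks (11.4 to 12.3). At a −log10 q under 2 these shares were 6.78%, 6.39% and 7.43%, and from 2 to 5 they were 7.64% (6.99 to 8.34), 7.31% (6.54 to 8.16) and 8.75% (8.02 to 9.54), with overlapping intervals for members and shared peaks in both bins. In the stronger bins the intervals of members and shared peaks did not overlap. From 5 to 10 they were 7.72% (6.47 to 9.18) and 10.3% (9.49 to 11.1). At 10 and over they were 6.78% (3.92 to 11.5) and 16.1% (15.3 to 17). Shared peaks were also wider than members in every bin. Their median widths were 372 and 333 bp under 2, and 445 and 366 bp from 2 to 5. From 5 to 10 the widths were 529 and 410 bp, and at 10 and over 727 and 459 bp. The part of width in the shares at starts and at noncoding gene ends was not tested.

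**Figure D1:**
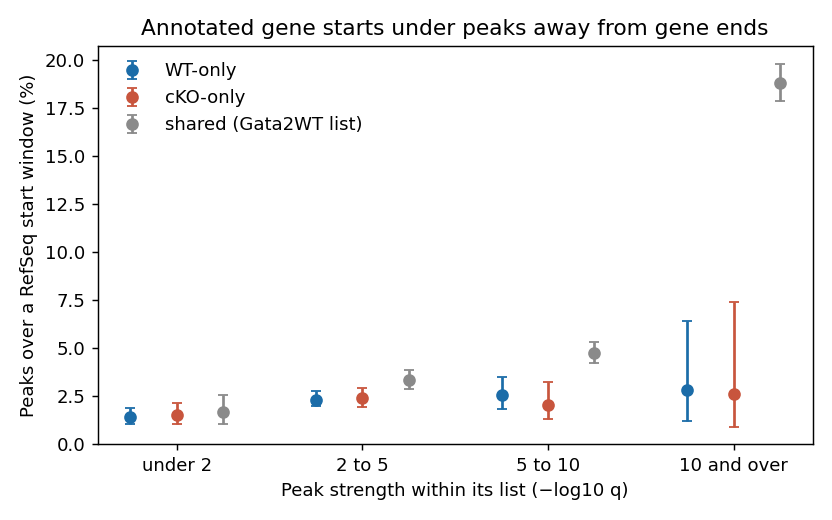
Share of peaks away from gene ends that lie over a RefSeq start window (y axis, percent), by peak strength within its own list (x axis, −log10 q); points are shares and bars 95% Wilson intervals. WT-only and cKO-only peaks stay between 1.43% and 2.82%, while shared peaks reach 18.8% in the strongest bin.

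Over coding and noncoding genes together, the start windows under members were close to all start windows of the table in GC content and GATA words. Those under shared peaks were richer in GC. The median GC content was 52% over 266 windows under members, 52.7% over 161 under cKO-only peaks, 59% over 2191 under shared peaks and 53% over all 32619 windows. AGATAA or TGATAA on either strand stood in 19.9% (15.6 to 25.1) of windows under members, 15.5% (10.7 to 21.9) under cKO-only peaks, 10.5% (9.28 to 11.9) under shared peaks and 18.6% of all windows. GC content moved with this count: among windows of 50% to under 60% GC, the word stood in 16.9% (11.7 to 23.7) under members, 11.8% (6.52 to 20.3) under cKO-only peaks, 13.0% (10.9 to 15.4) under shared peaks and 14.4% of all. Below 50% GC the shares were 29.4% (20.8 to 39.8), 31.2% (19.9 to 45.3), 24.1% (19.8 to 29.1) and 33.1%. At 60% and over they were 9.09% (3.14 to 23.6), 0% (0 of 28 windows, up to 12.1), 4.25% (3.18 to 5.65) and 4.1%. The intervals for members, cKO-only and shared peaks overlapped in each of these GC ranges. Noncoding genes held 188 of the 266 windows under members, but 11574 of all 32619. For noncoding genes the median GC content was 51.7% under members and 48.3% in all windows, and for coding genes 53.2% and 56.7%. The word stood in 20.2% (15.1 to 26.5) and 23.6% for noncoding genes, and in 19.2% (12.0 to 29.3) and 15.8% for coding genes. GC content and words were read over the whole window, also where a peak covered only part of it. The 266 windows lay under 230 members, and some windows under the same member overlap and repeat most of their bases. The intervals count each window as separate, so they are too narrow. These windows are a small and promoter-rich fraction of the members, so the counts do not describe distal sites at large.

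MicroRNA hairpins lay under 11 members, 11 cKO-only peaks and 37 shared peaks (0.1%, 0.159% and 0.194%). The 3 microRNAs below are shown because members cover all of their bases, the first under the strongest of the 11 and the others as a pair with 1 seed. The seed, bases 2 to 8 from the 5′ end, is in capitals.
mmu-miR-138-5p: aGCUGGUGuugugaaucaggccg
mmu-miR-6942-5p: uAGGAGGAggggaacauuugc
mmu-miR-6916-5p: cAGGAGGAuggagaugaguca
The member at Mir138-2 on chromosome 8 had a −log10 q of 5.38 and 15 fragments. It covered the 5p arm but not the 3p arm of the hairpin. At Mir6942 the member had a −log10 q of 4.05 and 12 fragments, and at Mir6916 it had 2.68 and 14 fragments. Both of the paired microRNAs carry the seed AGGAGGA.

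Members were mostly weak peaks, which is a property of the choice. Within Gata2WT peaks away from gene ends, 36.5% had no Gata2cKO counterpart, against 28.5% of all Gata2WT peaks and, in the mirrored comparison, 26.5% of Gata2cKO peaks away from gene ends. That background ran from 73.5% for a −log10 q under 2, through 53.1% for 2 to 5 and 21% for 5 to 10, to 2.45% at 10 and over. The median member had a −log10 q of 2.82, a fold enrichment of 3.45, 11 fragments at the summit and a width of 358 bp. For cKO-only peaks these medians were 2.84, 3.37, 11 and 332 bp, and for shared Gata2WT peaks 7.31, 4.71, 19 and 552 bp. Summits of 8 to 11 fragments, the lowest counts in the list, made up 52.1% of members and 57.1% of cKO-only peaks. A total of 182 members had a −log10 q of at least 10, beside 121 cKO-only peaks. The part that the depth of the lists plays in membership was not tested.

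Peaks just inside and just outside each limit had like values. A member 1001 bases from the end of 2410141K09Rik had a −log10 q of 2.62, and a WT-only peak 999 bases from Rrp7a, left out as a gene-end peak, had 2.37. At the far limit, a member 99990 bases from Bach2 had 2.62 and a peak left out at 100079 bases from Gm13090 had 3.67. The member nearest to a Gata2cKO peak, near Smurf2, stood directly beside it with 0 bases between (−log10 q of 1.91), and a shared peak near Txnip overlapped its counterpart by 1 base (1.47). Only 90 of 19713 shared peaks (0.457%) overlapped by under 50 bases.

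Members lay somewhat farther from gene ends than the peaks both lists held. Their median distance was 17.5 kb, with quartiles of 7.52 and 37.0 kb, against 15.6 kb for cKO-only peaks and 13.8 kb for shared peaks. Within 5 kb of a gene end lay 16.2% of members (15.5 to 16.9), 17.8% of cKO-only peaks (17.0 to 18.7) and 22.1% of shared peaks (21.5 to 22.7). Between 50 and 100 kb the shares were 16.3%, 14.6% and 13.2%. At a −log10 q of 5 to 10 the medians were 16.5 kb for members, 16 kb for cKO-only peaks and 14.8 kb for shared peaks.

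**Figure D2:**
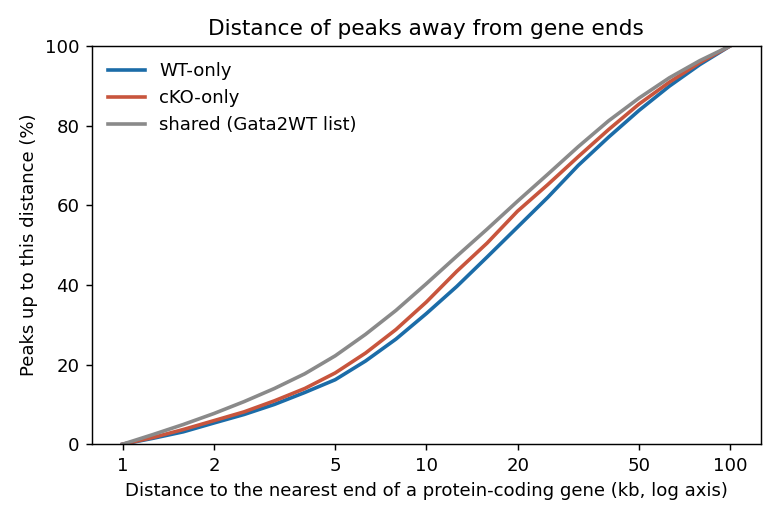
Cumulative share of peaks (y axis, percent) against the distance from the nearest end of a protein-coding gene (x axis, kb, log scale) for WT-only, cKO-only and shared Gata2WT peaks. The WT-only curve lies lowest through most of the range, with medians of 17.5, 15.6 and 13.8 kb.

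Inside a protein-coding gene lay the summits of 58.1% of members (57.2 to 59.0), 58.5% of cKO-only peaks (57.3 to 59.6) and 55.0% of shared peaks (54.3 to 55.7). For a −log10 q under 2 this was 60.6% of members (59 to 62.2) and 54.4% of shared peaks (51.6 to 57.2). In the stronger bins their intervals overlapped, with 57.8% and 56.2% from 2 to 5, 54% and 53.2% from 5 to 10, and 54.4% and 55.7% at 10 and over. Genes that hosted members were long. The median host spanned 91.1 kb for members, 83.4 kb for cKO-only peaks and 72.8 kb for shared peaks, and hosts over 100 kb held 46.0% (44.8 to 47.2), 42.8% (41.3 to 44.3) and 38.9% (38.0 to 39.8). At a −log10 q of 2 to 5 these shares were 45.6% (44.0 to 47.3), 43.1% (41.2 to 45.1) and 42.1% (40.3 to 43.8).

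Most members stood apart from any Gata2cKO peak. A Gata2cKO peak lay within 250 bp of 1.43% of members, within 1 kb of 6.34% (5.9 to 6.8), within 5 kb of 26% and within 20 kb of 74.6%, at a median of 9.64 kb. For cKO-only peaks the nearest Gata2WT peak was within 1 kb in 9.40% (8.75 to 10.1), at a median of 7.65 kb. The Gata2WT list is the longer one, and its part in this difference was not tested. The nearest other peak of the same list was 9.02 kb away for the median member, 8.94 kb for cKO-only peaks and 8.02 kb for shared Gata2WT peaks.

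**Figure D3:**
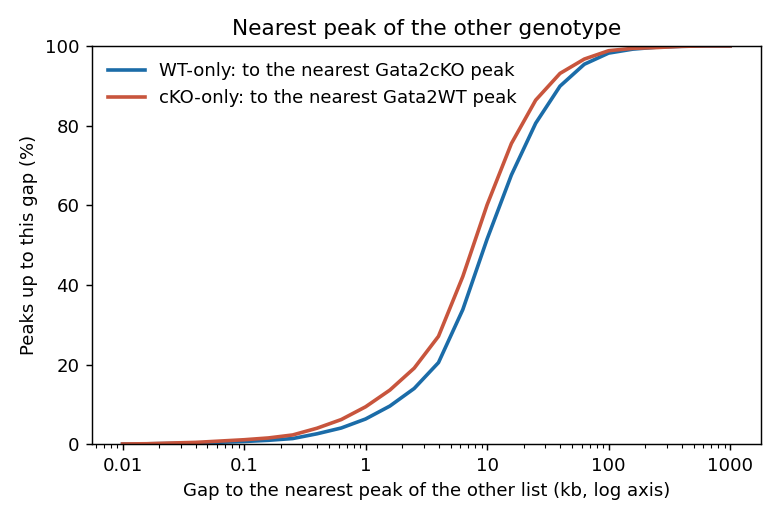
Cumulative share of peaks (y axis, percent) against the gap to the nearest peak of the other genotype's list (x axis, kb, log scale). WT-only peaks reach 6.34% at 1 kb and 74.6% at 20 kb, and cKO-only peaks 9.40% and 81.6%.

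Counted along each chromosome, 6171 members (54.5%) had a Gata2WT peak that is no member on both sides, and the others came in runs. The 3 longest runs held 7 members each with no other Gata2WT peak between them. One spanned 77.8 kb on chromosome 17 over Prph2, a photoreceptor protein gene, and Ubr2, a ubiquitin ligase gene needed in male meiosis, with −log10 q from 1.37 to 4.82 and 1 Gata2cKO peak within the span. Another reached over 248 kb on chromosome 2, from Ttn, the gene of the muscle protein titin, past Ccdc141 to Sestd1, with values from 1.37 to 7.31 and 0 Gata2cKO peaks within it. The last, of 148 kb on chromosome 4 from Cga to Ifnk, held 3 Gata2cKO peaks, all 3 of them cKO-only.

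The 10 strongest members were single sites and lay at genes of different kinds. After the member near Trim43c came one inside Fat1, an atypical cadherin gene, at chr8:44979145-44979719, with a −log10 q of 29.6, a fold enrichment of 8.40 and 50 fragments. The third lay inside Cdh4, which encodes R-cadherin, at chr2:179535089-179535498, with 28.6 and 41 fragments. Supt20, a gene of the SAGA coactivator, held one with 25.8 at chr3:54699222-54700071, and Sstr1, a somatostatin receptor gene, had one 6.56 kb away with 25.1. Those 4 lay between 6.11 and 11.3 kb from the nearest Gata2cKO peak. Next came a member inside Adgrb1, an adhesion receptor gene, with 22.4 and a Gata2cKO peak only 0.347 kb away. The remaining 4, nearest to Shfl, Golgb1, Camkmt and Nek7, had a −log10 q of 19.9, 19.6, 19.3 and 18.9. None of these 10 was given to a gene of the 15 lists below.

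Members were spread over many genes. A peak was given to the gene with the nearest end, which need not be the gene it acts on. At least 1 member was given to 6576 genes, 58.8% of the 11187 genes with any Gata2WT peak away from gene ends. Of these, 3948 had 1 member, 247 had 5 or more, and 2868 (43.6%) also had a cKO-only peak. Gene length moved with the count: genes of up to 20 kb had 0.226 members and 0.147 cKO-only peaks each, and those over 100 kb had 1.53 and 0.935. The WT-only share of Gata2WT peaks was 32.8% for the short genes and 40.7% for the long ones.

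Tead1, a transcription factor of the Hippo pathway, had the most members, 11, beside 4 cKO-only and 10 shared peaks. There were 10 members each given to Mical3 and Fry, of cytoskeletal regulation, to Gli2, a transcription factor of hedgehog signalling, and to Epb41l3, a membrane skeleton gene. Their cKO-only peaks numbered 1, 2, 4 and 0. The strongest member of Tead1 had a −log10 q of 5.73 and that of Epb41l3 4.82, so these genes are rich in weak members. When the Gata2WT list was cut to its 44139 strongest peaks, the length of the Gata2cKO list, Epb41l3 kept 4 members with 0 cKO-only peaks. Mical3 then had 6 with 2, Gli2 7 with 4, Fry 8 with 2 and Tead1 9 with 4. This cut, called equal length here, left the Gata2cKO list whole. Gata2WT peaks then had a −log10 q of at least 1.97, while cKO-only peaks went as low as 1.03. Gata2cKO peaks that lost their Gata2WT partner counted as cKO-only, and over all genes these rose from 7158 to 8287. Tbc1d30, a Rab GTPase regulator, had 9 members and 1 cKO-only peak, both unchanged at equal length, with its strongest member at 10.8. Scn8a, a sodium channel gene, had 9 and 1, and Wdfy3, an autophagy adaptor gene, 8 and 0; at equal length these were 7 and 1, and 6 and 0.

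**Figure D4:**
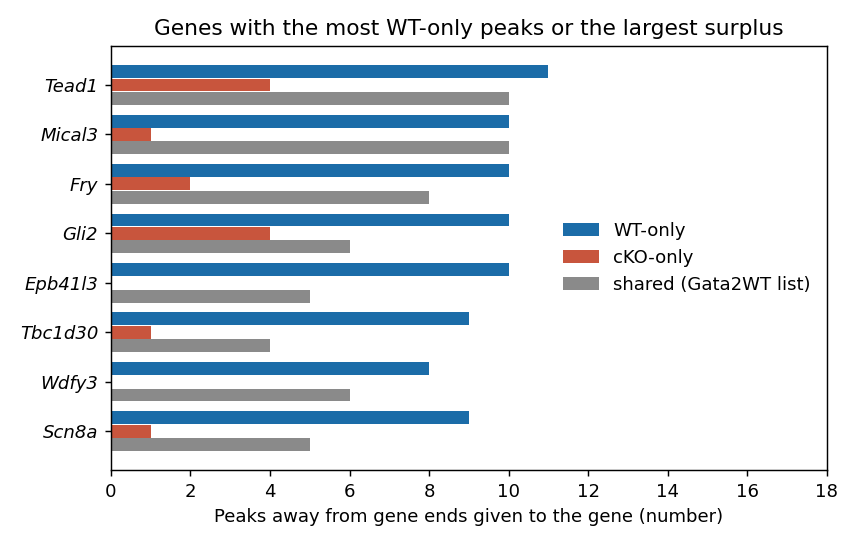
Number of peaks away from gene ends given to each gene (x axis), as WT-only, cKO-only and shared Gata2WT peaks, for the 8 genes with the most WT-only peaks or the largest surplus over cKO-only peaks. Tead1 leads with 11 WT-only peaks, and Epb41l3 and Wdfy3 have 0 cKO-only peaks.

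Gata2 itself had 1 member, at chr6:88181121-88181597, at a distance of 12.3 kb, and its −log10 q was 3.31 with 11 fragments. Its other 3 Gata2WT peaks away from the gene ends were shared, with a −log10 q of 36.5, 22.9 and 6.09.

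Pluripotency genes held 38 members among 124 Gata2WT peaks away from gene ends (30.6%, 23.2 to 39.2), near the background of 36.5%. The strongest lay inside Esrrb, a nuclear receptor of naive pluripotency, at chr12:86473566-86473868. It had a −log10 q of 17.4, a fold enrichment of 5.44 and 43 fragments on a local background of 7.08, and the nearest Gata2cKO peak was 3.05 kb away. Esrrb had 4 more members with a −log10 q of 1.97 to 2.91, and 4 cKO-only peaks, which became 5 and 6 at equal length. Sox2, a core pluripotency factor, had 6 members and 1 cKO-only peak, 6 and 2 at equal length, with members of 7.89 at chr3:34575361-34576697 and 6.64 at chr3:34665050-34665472 beside its strongest one of 12.4. Lefty1 and Lefty2, inhibitors of Nodal, had members of 10.3 and 5.47, Klf5 one of 7.73, Klf2 a pair of 5.93 and 5.02, and Prdm14, a germline and pluripotency regulator, one of 5.23.

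Germ cell identity and meiotic genes also had shares near the background. The identity list held 26 members of 72 peaks (36.1%, 26 to 47.6) and the meiosis list 20 of 53 (37.7%, 25.9 to 51.2). Prdm1, the germ cell specifier that the Cre driver is named for, had 7 members and 3 cKO-only peaks, the strongest at chr10:44492991-44493479 inside the gene with a −log10 q of 8.58 and 20 fragments. The other 6 ran from 1.37 to 4.45, and at equal length 4 members stood beside 3 cKO-only peaks. Whether the Cre driver adds Prdm1 sequence that maps to this locus was not tested. Dazl, an RNA-binding protein of germ cells, had a member of 12.0 at chr17:50237068-50237873, at a distance of 41.5 kb. Kit, the stem cell factor receptor, had 5 members and 4 cKO-only peaks, with members of 7.09 and 6.32, and 5 and 6 at equal length. Nanos3, a germ cell survival gene, had a member of 5.42. Among meiotic genes, Spidr, of homologous recombination, had a member of 8.0 inside the gene, Mnd1, of strand exchange, one of 5.55 that stood 44.5 kb from any Gata2cKO peak, and Rec114, of double strand break formation, one of 5.42. Hormad2, of the chromosome axis, had 2 members and 0 cKO-only peaks.

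The balance of members and cKO-only peaks was also counted for signalling genes, with overlapping intervals for the retinoic acid, BMP and WNT lists. Over all genes, members made up 61.2% (60.5 to 61.9) of the 18471 peaks found in 1 list alone, and 49.6% at equal list length. Only the Gata2WT list was cut for this, so the lists were equal in length but not matched in peak strength. The retinoic acid list had 37 members and 10 cKO-only peaks (78.7%, 65.1 to 88.0), and 30 and 11 at equal length (73.2%, 58.1 to 84.3). Its members were spread over 19 of 26 genes. Nrip1, a nuclear receptor corepressor, had 5 with 1 cKO-only peak, and 2 with 1 at equal length. Rxrg, a retinoid X receptor, had 4 and 0, and Meis1, a homeobox target of retinoic acid, 4 and 1. Aldh1a3, which makes retinoic acid, had 3 and 0, and Rarb, a retinoic acid receptor, had 2 and 0. Other genes of the list went the other way or were even: Rxra, a retinoid X receptor, had 1 and 2, Meis2, a homeobox gene, 2 and 2, and Ncor1, a corepressor gene, 1 and 1. Rarg, a retinoic acid receptor, Cyp26a1, which degrades retinoic acid, and Crabp2, which binds it, each had 0 and 1. As a share of all Gata2WT peaks away from gene ends, 37 of 88 were members (42.0%, 32.3 to 52.5), an interval that holds the background of 36.5%.

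In the BMP list, 37 members made up 36.6% (27.9 to 46.4) of the Gata2WT peaks and 61.7% (49.0 to 72.9) of the single-list peaks, or 48.2% (35.7 to 61.0) at equal length, close to all genes. Bmp4, a ligand that directs germ cell formation, had 5 members and 1 cKO-only peak, the strongest of 5.62 lying 21.7 kb from the gene at chr14:46412378-46413015. Bmp7, a ligand of the same family, had 5 and 0, none above 3.89, and 4 and 1 at equal length. Genes of the list that went the other way were Smad6 (1 and 7), Acvr1 (1 and 3), Acvr2b (2 and 3), Id4 (0 and 3) and Bmp8b (0 and 1). In the WNT list 55 of 138 were members (39.9%, 32.1 to 48.2), and they made up 69.6% (58.8 to 78.7) of the single-list peaks, or 53.7% (41.9 to 65.1) at equal length. Tcf7l2, a WNT effector, had 8 and 2, which became 3 and 4 at equal length, and Ctnnb1, the gene of beta-catenin, had 4 and 0, then 3 and 0. In the same list Znrf3 (0 and 3), Tcf7l1 (3 and 4), Rnf43 (1 and 2) and Sp5 (0 and 1) went the other way. Axin2 was even, with 4 and 4.

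GATA factors and their partners had 38 members of 95 peaks (40.0%, 30.7 to 50.1) and 14 cKO-only peaks. Members made up 73.1% (59.7 to 83.2) of the single-list peaks, and 65.2% (50.8 to 77.3) at equal length. Tcf12, an E protein, had 6 and 1, the strongest of 9.11 lying 49.8 kb from the gene, and 3 and 1 at equal length. Lyl1, a blood helix-loop-helix factor, had 3 and 2, with a strongest member of 10.0; all 3 lie inside the neighbouring gene Nfix. Epigenetic regulators had 40 members of 93 peaks (43.0%, 33.4 to 53.2). Jarid2, a Polycomb cofactor, had 6 with 3 cKO-only peaks, the strongest of 10.0 inside the gene and 18 kb from any Gata2cKO peak. Tet1, which oxidises methylated cytosine, had 5 with 1, none of its members above 3.03. Cell cycle genes had 20 members and 25 cKO-only peaks (44.4%, 30.9 to 58.8). At equal length they had 18 and 28 (39.1%, 26.4 to 53.5), an interval that holds the 49.6% of all genes. Cdk6 and Cdk1, cell cycle kinases, had 3 members with 4 cKO-only peaks, and 2 with 3. Oocyte genes had 15 members of 39 peaks (38.5%, 24.9 to 54.1), among them 4 at Foxo3, a transcription factor that restrains follicle activation, beside 5 cKO-only peaks (2 and 6 at equal length), and housekeeping genes 11 of 32 (34.4%, 20.4 to 51.7).

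Marker genes of ovarian supporting cells had the highest member share of single-list peaks among the 15 lists, 32 members against 7 cKO-only peaks (82.1%, 67.3 to 91.0), and 30 against 9 at equal length (76.9%, 61.7 to 87.4). Wt1, a transcription factor of gonadal somatic cells, had 5 members and 0 cKO-only peaks, also at equal length, with members of 6.24 and 5.62 on the flank of the gene. Irx3, a homeobox gene of pregranulosa cells, had 4 and 0, also at equal length, and no shared peak; its members, 10.9 to 70.9 kb away, had −log10 q values of 8.36, 6.34, 3.31 and 3.27. Rspo1, a WNT enhancer of ovary development, had 3 and 0, and Foxl2, a defining factor of granulosa cells, had 1 and 0. The 7 cKO-only peaks of the list stood at Runx1 (2 members and 2 cKO-only peaks), Gata4 (2 and 1), Sox9 (3 and 1), Fst (1 and 1), Irx5 (1 and 1) and Kitl (0 and 1). As a share of Gata2WT peaks the list stood at 41.0% (30.8 to 52.1), an interval that holds the background. Some of these genes have other roles, and the lists for GATA factors, WNT and supporting cells share members such as Gata4, Runx1, Wnt4, Lgr5 and Rspo1. Endothelial genes had 17 members and 8 cKO-only peaks (68.0%, 48.4 to 82.8), and 9 and 9 at equal length (50%, 29 to 71). Kdr, a VEGF receptor gene, had 3 and 0, then 2 and 0 at equal length, and Flt1, another, 4 and 4, then 2 and 4. Stromal genes had 7 and 5, and blood and macrophage genes 2 and 4. Whether the 2 pools differed in the number of somatic cells was not tested, and in pooled cells the number of cells with an open site and the openness per cell cannot be told apart. With 15 lists side by side and no replicates, an interval that misses 61.2% for 1 list is a description of these 2 pools.

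**Figure D5:**
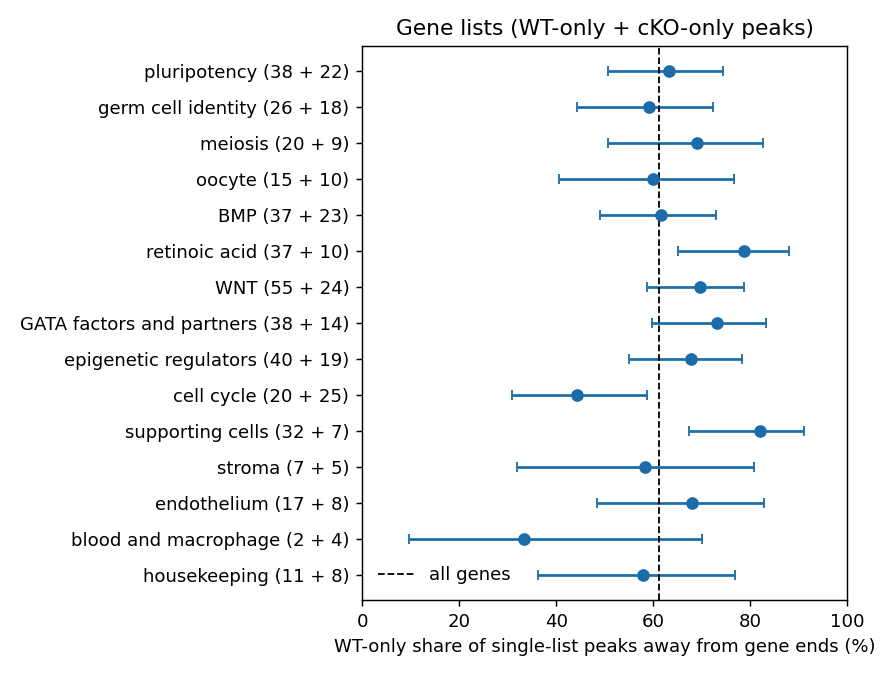
WT-only share of the single-list peaks away from gene ends (x axis, percent) for each of 15 gene lists (rows, with the numbers of WT-only and cKO-only peaks); points are shares, bars 95% Wilson intervals, and the dashed line is 61.2% over all genes. The supporting cell and retinoic acid lists lie to the right of the line with intervals that miss it, and the cell cycle list to the left, where its interval at equal list length holds the background.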

How the data were processed

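The samples were 2 Gata2cKO and 2 Gata2WT ATAC-seq libraries. Per the submitters' processing notes, the tools were MACS2 2.2.6, bedtools 2.29.2, Bowtie2 2.3.5.1, Picard 2.23.0, Trimmomatic 0.39 and SAMtools, with build GRCm38. For their parameters, any Tn5 shift and the way replicates were combined, the sources used here give nothing. The deposited lists give each peak a fold enrichment (a ratio of summit pileup to local background), a −log10 p, a −log10 q and a score, as the authors' peak caller wrote them. The fold enrichment is that ratio after 1 is added to the summit pileup and to the local background. The values of the lists are not scaled between genotypes and describe peaks within a list. The lowest −log10 p was 3.00 in both.

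Rows with the same interval were merged to 1 peak with its strongest summit (52236 rows in Gata2cKO and 58357 in Gata2WT on 19 autosomes and X). Whole summit pileups were solved from fold enrichment and −log10 p, within 0.001 for 99.9955% of Gata2cKO and 99.996% of Gata2WT peaks. Gaps between intervals, distances to gene ends, placement inside genes and pileups were tested on simulated data, and the other steps were not. Reads per sample are not known here. Peaks were shared if they had 1 or more bases in common. Distances run from the interval's edge to the ends of 21631 protein-coding RefSeq genes (GRCm38.p6), and inside or between genes was decided by the summit. No genome sequence was used here, so motifs were read only in 32619 RefSeq start windows on 19 chromosomes. Of 382 listed genes, 381 were found, 2 by an older symbol.

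The members and gene lists were chosen with earlier results of these data known. Named genes follow a rule: the 10 strongest members, the 2 genes per list with the most members (at least 2), the 5 genes with the most members and the 5 with the largest surplus over cKO-only peaks, the 3 longest runs, the peaks at each limit, Gata2, and members with a −log10 q of at least 5 in the pluripotency, germ cell and meiosis lists. The genes at start windows and microRNAs, and others of the retinoic acid, BMP, WNT and supporting cell lists, were chosen after their values were seen. Alternatives covered the overlap rule, the q threshold, other limits near and far from genes, the gene table and the sequences included. For lists of equal length, the Gata2WT list was cut to the length of the Gata2cKO list by −log10 q. Python 3.11.15, pandas 2.3.3, numpy 2.4.6, scipy 1.17.1 and matplotlib 3.10.9 were used. Results for some items are not reported here.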

Additional observations from a re-analysis of the deposited data

How the results depend on the processing

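No paired analysis was possible because each genotype has 1 list combined over its replicates, and for the same reason no replicate could be left out. Of 49 recomputed values, 29 stayed within the interval of the reported value (counts within 1.5 times) and 20 did not. Equal list length was applied to the member share of single-list peaks after seeing the data: of 16 such shares, 12 stayed within their interval and 4 did not, namely 43.9% for germ cell identity (59.1% in the full lists), 48.2% for BMP (61.7%), 53.7% for WNT (69.6%) and 49.6% for all genes (61.2%). The number of members was 1722 with only Gata2WT peaks of −log10 q of at least 5, and 8160 at equal list lengths, all of them among the 11313. The share of Gata2WT peaks away from gene ends without a counterpart was 11.7% at a −log10 q of at least 5, 30.5% at equal list lengths, 42.2% with summits within 250 bp as the rule, 38.2% with a window of 5 kb, 35.6% with a limit of 50 kb and 38.2% with all annotated genes. The share of members inside genes was 54.1% at a −log10 q of at least 5, 57.0% at equal list lengths and 64.2% with all genes. The median distance was 16.9 kb under the summit rule, 16.2 kb at a −log10 q of at least 5, 22.2 kb with the 5 kb window, 13.4 kb with the 50 kb limit and 11.0 kb with all genes; the window, limit and gene table move it by construction. The share of members with a Gata2cKO peak within 1 kb was 4.98% when gaps of 250 bp counted as shared, 19% under the summit rule, 5.42% with the 5 kb window and 5.89% with all genes. The share over an annotated start was 1.46% when only the start base counted, a choice made after seeing the data. The share on chromosome X stayed within its interval under every alternative. With a median summit of 11 fragments, few fragments separate the members from the threshold; the GATA word counts over whole peaks, planned with 2 alternatives, were not run.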

Other observations

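By chromosome, the share of Gata2WT peaks away from gene ends that were members ran from 32.7% on X (28.9 to 36.7) to 40.7% on chromosome 12 (38.1 to 43.3). Chromosome X held 182 members, 1.61% of all, beside 1.41% of cKO-only peaks and 1.90% of shared peaks, with an interval of 1.39 to 1.86 for members.

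Between genes, the nearest gene end was the start of the gene for 53.0% of members (51.3 to 54.6), 51.2% of cKO-only peaks (49.2 to 53.3) and 52.2% of shared peaks (51.0 to 53.3), and these intervals overlap.

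More than 1 summit was called in 1.80% of members (1.57 to 2.07), 1.02% of cKO-only peaks (0.812 to 1.28) and 13.4% of shared peaks (12.9 to 13.9). A local background at the genome background stood behind 40.7% of members (39.8 to 41.6), 30.5% of cKO-only peaks (29.4 to 31.5) and 15.8% of shared peaks (15.2 to 16.3). Within 100 kb, 199 members had no Gata2cKO peak (1.76%, 1.53 to 2.02), against 88 cKO-only peaks without a Gata2WT peak at that distance (1.23%, 0.999 to 1.51).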
